A study of Mus musculus with 16 samples.

Results

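The genes described here are 38 markers of cells other than B cells, measured in RNA from sorted mouse germinal centre B cells. They were chosen by name, with earlier results of these data known that had named Flt3, Car2 and Thy1. Of them 15 mark macrophages and monocytes, 7 dendritic cells, 10 T cells, 2 natural killer (NK) cells and 4 red blood cell precursors. All 38 had a row in the count table, which held 48593 genes. Of these, 26 members passed the filter on low counts and were tested, together with 16580 other genes. The 12 that did not pass were Cd14, Fcgr1, Marco, Siglech, Batf3, Cd3e, Cd3d, Cd3g, Cd8a, Ncr1, Car1 and Hba-a1, and their values are given without a test.

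The study compared mice carrying conditional, germinal-centre-specific alleles of Crebbp, the gene of a histone acetyltransferase, with wild type mice. Mice received sheep red blood cells into the abdominal cavity. B cells were enriched with a magnetic kit and sorted for B220, PNA and CD95 on the surface, and total RNA was sequenced, 1 library per sample and 16 in all. The labels disagree on the time after immunisation, 12 days in the growth protocol and 10 days in a sample tag. The first cohort held 3 Crebbp knockout libraries (KO) and 3 wild type libraries (KO cohort WT). The second held 4 libraries heterozygous (RH HET) and 3 libraries homozygous (RH HOMO) for an arginine-to-histidine knock-in allele, and 3 wild type libraries (RH cohort WT). Every mouse was immunised, and no unimmunised group is part of the comparison. A tag names the spleen. The labels name neither the Cre driver nor the age and strain of the mice. Whether libraries came from separate mice is not stated either, and a p-value here measures spread between libraries that may be technical.

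A sort on surface proteins keeps the cells that carry them, and a few other cells can pass as doublets, debris or cells that share the marker. Germinal centres also hold tingible body macrophages, which engulf dying B cells and express the complement C1q genes, and T follicular helper cells, which select B cells. Some genes named as markers of other lineages are also transcribed by B cells. In mice the adhesion receptor gene Cd2 is such a case, and Cd5 is carried by B-1 cells. In bulk RNA, fewer cells of a type and less RNA per cell cannot be told apart.

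The globin genes are the defining markers of red blood cell precursors, and each has a near-identical neighbour. Their sequences are shown because a short read from most of the coding region cannot be placed on 1 copy, so the counts of these genes are uncertain. The coding sequences of Hbb-bs and Hbb-bt on chromosome 7 were 99.8% identical, with 1 differing base in 444, and so were those of Hba-a1 and Hba-a2 on chromosome 11, with 1 differing base in 429. The stretches of 61 coding bases around that base are given from GENCODE M21 transcripts, in transcript orientation, with the differing base in capitals. They span coding bases 384 to 444 of the Hbb pair and 351 to 411 of the Hba pair.
Hbb-bs: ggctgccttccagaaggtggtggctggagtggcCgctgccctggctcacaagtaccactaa
Hbb-bt: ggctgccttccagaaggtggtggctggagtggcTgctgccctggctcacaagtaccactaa
Hba-a1: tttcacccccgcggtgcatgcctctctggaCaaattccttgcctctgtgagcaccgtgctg
Hba-a2: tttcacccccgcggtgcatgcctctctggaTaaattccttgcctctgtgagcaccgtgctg
Of all stretches of 50 bases in their annotated exons, 53.2% of those of Hbb-bs and 72.3% of those of Hba-a1 also occurred in another gene.

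Total counts per library ran from 41362856 to 93040297, and Spearman correlations between libraries of a group ran from 0.977 to 0.991. RH HOMO 2 and RH cohort WT 1 stood apart, with scores of 77.1 and 50.7 on principal component 1 against -40.7 to 24.3 in the other 14 libraries. RH cohort WT 1 has a title of the knock-in cohort and a batch tag of the knockout cohort, and the title was used. Counts of the targeted gene over its whole length did not check the KO labels, since the deleted part is not given: Crebbp was at 108 to 137 CPM (the count scaled to a library of 1000000 counts) in KO libraries, against 127 to 149 CPM in KO cohort WT libraries. The markers of the sorted cell type were present, with 8701 to 10080 CPM summed over 10 B cell identity genes and 5057 to 8667 CPM over 11 germinal centre B cell genes, a sum that differed between groups as given beside each comparison. Mki67, a gene of dividing cells, held 3227 CPM of the mean germinal centre sum of 7099 CPM. Low counts were mostly even: among genes with 1 to 20 counts, 79.1% to 87.3% of values per library were even, and 189 of 207 such values of the members were. A count of 2 may thus stand for 1 fragment, and halving all counts left the calls of members as they were.

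The members' RNA was scarce and came mostly from a few genes. Summed over all 38, it made up 0.0495% to 0.0760% of a library. Apoe, Lck, Cd2 and Flt3 held 92.9% to 96.4% of that sum. The remaining 34 members summed to 33.6 to 50.2 CPM in RH HOMO libraries and 31.1 to 39.8 CPM in RH HET libraries, against 27.1 to 34.0 CPM in RH cohort WT libraries. In the knockout cohort the same 34 summed to 26.1 to 29.6 CPM in KO libraries and 22.3 to 29.1 CPM in KO cohort WT libraries. Only 10 members averaged above 1 CPM over the 16 libraries, and 28 averaged at or below it, of which 16 passed the filter. Per kilobase of exon, mean levels were 168 CPM for Apoe, 50.9 for Cd2, 38.3 for Lck, 8.12 for Cd68, 7.56 for Flt3 and 1.83 for Car2. No other member exceeded 0.909 CPM per kilobase, the mean of Csf1r. A count of 0 allowed up to 3 counts, which was 0.0317 to 0.0786 CPM depending on the library, for counting error only. If fragments were counted more than once, as the even counts allow, the limit in CPM is higher than this.

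**Figure D1:**
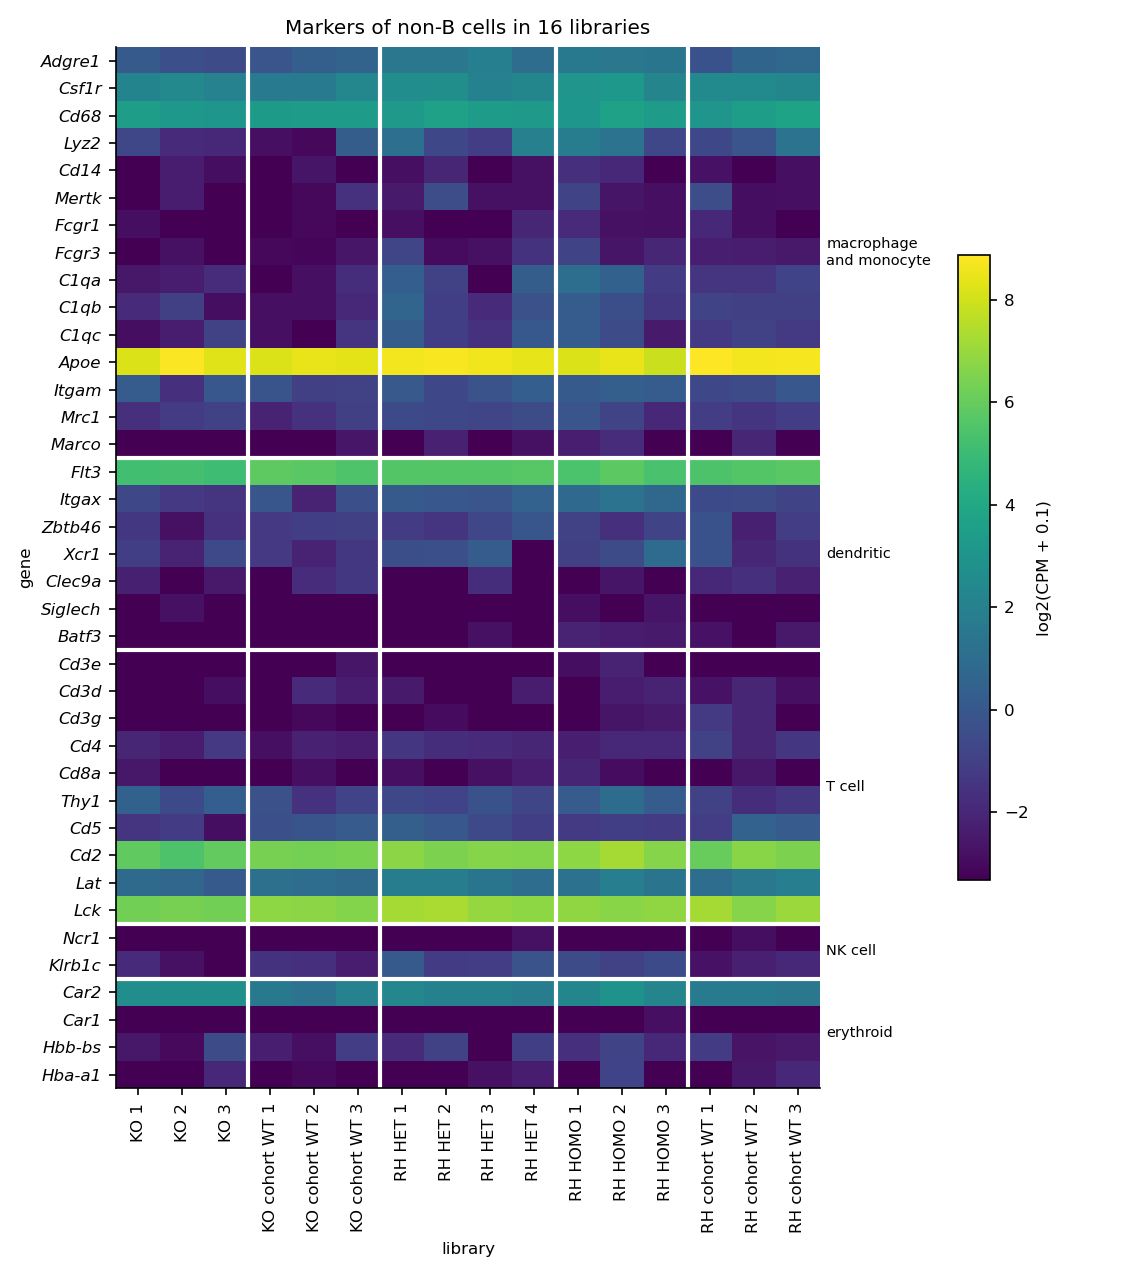
Level of each of the 38 markers (rows, grouped by cell type) in each of the 16 libraries (columns, grouped by genotype), as log2 of CPM plus 0.1. Apoe, Lck, Cd2 and Flt3 stand out in every library, while 9 members were at a count of 0 in at least 8 libraries.

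Cd3e, Cd3d and Cd3g, genes of the T cell receptor complex, were near 0, while Lck and Cd2 on the same list were abundant. Cd247, the zeta chain gene of that complex on an additional list, averaged 16.3 CPM. Cd3e, which encodes a signalling chain of that complex, had 14 counts in all, 2 in RH HOMO 1, 8 in RH HOMO 2, 4 in KO cohort WT 3 and 0 in the other 13 libraries. Cd3d and Cd3g, 2 further chains, did not exceed 0.180 and 0.314 CPM in any library, and Cd8a, a co-receptor of cytotoxic T cells, did not exceed 0.141 CPM. The co-receptor gene Cd4 was measured at 0.0414 to 0.419 CPM. By contrast Lck, the kinase that starts T cell receptor signalling, averaged 112 CPM, and Lat, the adaptor downstream of it, averaged 2.40 CPM (range 0.993 to 3.63 CPM).

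Lck (chromosome 4, 129548344 to 129573641, minus strand, GRCm38) was at 76.2, 81.5 and 76.3 CPM in KO libraries, against 110, 107 and 96.9 CPM in KO cohort WT libraries. In the knock-in cohort it was at 148, 160, 122 and 110 CPM in RH HET libraries and at 114, 102 and 113 CPM in RH HOMO libraries, against 148, 102 and 129 CPM in RH cohort WT libraries. The KO libraries lay below all the others, and the knock-in groups overlapped. The log2 fold change in KO was -0.43 ± 0.14 (SE, adjusted p = 0.160, edgeR quasi-likelihood test), which did not pass the threshold of 0.05. The counts of Cd2 were singled out after they were seen. They came to 58.9, 43.3 and 60.7 CPM in KO libraries, against 82.2, 78.5 and 85.5 CPM in KO cohort WT libraries in the knockout cohort. Knock-in cohort values were 106, 86.9, 102 and 96.1 CPM in RH HET libraries and 111, 150 and 99.6 CPM in RH HOMO libraries, against 65.4, 104 and 88.3 CPM in RH cohort WT libraries. KO libraries lay below their wild type without overlap, whereas RH HET and RH HOMO overlapped theirs. The fold changes were -0.60 ± 0.17 in KO (adjusted p = 0.102) and 0.49 ± 0.17 in RH HOMO (adjusted p = 0.179). The difference between these effects was 1.08 ± 0.24 (adjusted p = 0.0661), and no call was made. Cd5, a scavenger receptor family gene that dampens antigen receptor signals, was at 0.253, 0.354 and 0.0382 CPM in KO libraries, against 0.684, 0.803 and 1.03 CPM in KO cohort WT libraries. Among knock-in cohort libraries Cd5 was at 1.19, 0.879, 0.549 and 0.386 CPM in RH HET libraries and at 0.318, 0.379 and 0.333 CPM in RH HOMO libraries, against 0.367, 1.33 and 1.02 CPM in RH cohort WT libraries. KO libraries did not overlap their wild type for this gene, with a log2 fold change of -1.96 ± 0.62 (adjusted p = 0.151), and the RH HOMO change of -1.40 ± 0.59 had an adjusted p of 0.309.

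Thy1, a surface glycoprotein gene of mouse T cells on chromosome 9 (44043384 to 44048579, plus strand), was the T cell marker that passed the test, in RH HOMO. It was at 1.03, 1.86 and 1.08 CPM in RH HOMO libraries, against 0.419, 0.200 and 0.281 CPM in RH cohort WT libraries, which is 58, 118 and 52 counts against 16, 11 and 14. In RH HET libraries it was at 0.532, 0.440, 0.732 and 0.483 CPM. Among knockout cohort libraries it was at 1.27, 0.576 and 1.15 CPM in KO libraries, against 0.704, 0.233 and 0.447 CPM in KO cohort WT libraries. The RH HOMO libraries were all above their wild type, the RH HET libraries lay between, and the KO libraries overlapped theirs. Thy1 rose in RH HOMO by 2.16 ± 0.48 on the log2 scale (adjusted p = 0.0282), a difference of 1.02 CPM. The KO change was 1.14 ± 0.46 (adjusted p = 0.297), the RH HET change was 0.88 ± 0.46 (adjusted p = 0.740), and the RH HOMO and KO effects differed by 1.02 ± 0.65 (adjusted p = 0.674). The call in RH HOMO was lost without RH HOMO 2 (1.82, adjusted p = 0.0921), without RH cohort WT 2 (1.93, adjusted p = 0.135) and without RH cohort WT 3 (2.11, adjusted p = 0.0897). Without both libraries that stood apart it was also lost (2.13, adjusted p = 0.101), as it was in a fit of the compared libraries only (2.15, adjusted p = 0.180). Moving the library with conflicting labels gave 2.44 (adjusted p = 0.0509). Beside this change, Cd3e was at 0.0353, 0.126 and 0 CPM in RH HOMO libraries, against 0 in all 3 RH cohort WT libraries. Other T cell members had lower means in RH HOMO than in RH cohort WT: Cd3g 0.0488 against 0.153, Cd4 0.1435 against 0.282 and Cd5 0.3435 against 0.906 CPM. Of the 6 tested T cell members, 2 had positive and 4 negative log2 fold changes in RH HOMO. The 7 T cell members that averaged at or below 1 CPM, Thy1 included, summed to 1.63 to 2.72 CPM in RH HOMO libraries, against 1.57 to 2.04 CPM in RH cohort WT libraries, and the part of other T cell RNA in the Thy1 result was not tested.

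**Figure D2:**
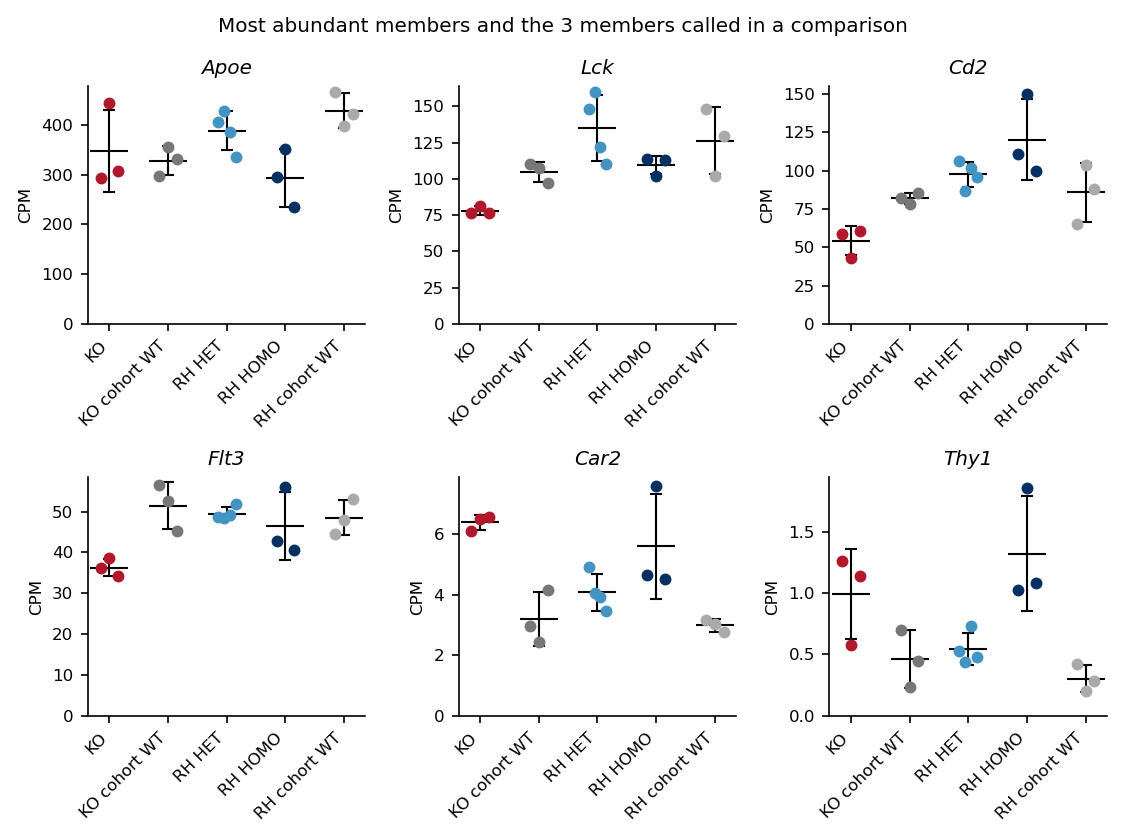
CPM per library (points) with the group mean and SD (bars) for Apoe, Lck, Cd2, Flt3, Car2 and Thy1, on linear axes from 0 for the 5 groups. Flt3 and Car2 separate KO from KO cohort WT, and Thy1 separates RH HOMO from RH cohort WT at 1.03 to 1.86 against 0.200 to 0.419 CPM.

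Of the dendritic cell markers, Flt3 was abundant and the others were scarce. Flt3, on chromosome 5 (147330741 to 147400489, minus strand), encodes a receptor tyrosine kinase that drives dendritic cell development and is also used by early blood progenitors. It was at 36.1, 38.5 and 34.2 CPM in KO libraries, against 56.5, 52.7 and 45.3 CPM in KO cohort WT libraries. In the knock-in cohort it was at 48.7, 48.4, 49.1 and 51.8 CPM in RH HET libraries and at 42.8, 56.2 and 40.5 CPM in RH HOMO libraries, against 44.6, 48.0 and 53.1 CPM in RH cohort WT libraries. The 3 KO libraries were the lowest of all 16, and both knock-in groups overlapped their wild type. Flt3 fell in KO by 0.51 on the log2 scale (SE 0.12, adjusted p = 0.0473), with means of 36.3 ± 2.17 CPM in KO and 51.5 ± 5.72 CPM in KO cohort WT (SD, n = 3 each). The RH HET change was 0.03 ± 0.11 (adjusted p = 0.964), the RH HOMO change was -0.06 ± 0.12 (adjusted p = 0.886), and the difference of the RH HOMO and KO effects was 0.44 ± 0.17 (adjusted p = 0.374). The call was lost without any 1 of the 6 libraries compared, with fold changes of -0.59 to -0.43 and adjusted p-values from 0.0525 (without KO cohort WT 3) to 0.240 (without KO cohort WT 1). It was also lost without RH cohort WT 2, RH cohort WT 3, RH HOMO 1 or any RH HET library, with adjusted p-values from 0.0517 to 0.0751. Moving the library with conflicting labels gave -0.45 (adjusted p = 0.0733), and leaving out both libraries that stood apart gave -0.50 (adjusted p = 0.00726).

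The 6 other dendritic cell members summed to 0.532 to 1.30 CPM in KO libraries, against 0.825 to 1.69 CPM in KO cohort WT libraries. Siglech, a lectin gene of plasmacytoid dendritic cells, had 7 counts in all, 2 in KO 2, 2 in RH HOMO 1 and 3 in RH HOMO 3, and 0 in the other 13 libraries. Batf3, a transcription factor gene of cross-presenting dendritic cells, did not exceed 0.124 CPM. The chemokine receptor gene Xcr1, a marker of the same cells, was at 0.380, 0.133 and 0.535 CPM in KO libraries, against 0.311, 0.127 and 0.298 CPM in KO cohort WT libraries. As for the knock-in cohort, Xcr1 was at 0.655, 0.674, 1.052 and 0 CPM in RH HET libraries and at 0.389, 0.601 and 1.79 CPM in RH HOMO libraries, against 0.734, 0.146 and 0.240 CPM in RH cohort WT libraries. Each of these groups overlapped its wild type, and single libraries spread widely. Clec9a, which encodes a receptor for dead cells, had a log2 fold change of -2.75 ± 1.60 in RH HOMO (adjusted p = 0.513), for a difference of -0.144 CPM between group means. Zbtb46, a transcription factor gene of conventional dendritic cells, stayed at or below 0.869 CPM.

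Itgax, which encodes the integrin CD11c of dendritic cells and some macrophages and B cells, was looked at after its values were seen. It was at 0.983, 0.879, 0.824 and 1.33 CPM in RH HET libraries and at 1.71, 2.36 and 1.64 CPM in RH HOMO libraries, against 0.577, 0.583 and 0.461 CPM in RH cohort WT libraries. Both knock-in groups lay above the wild type libraries they share. The log2 fold changes were 0.89 ± 0.47 in RH HET (adjusted p = 0.740) and 1.82 ± 0.50 in RH HOMO (adjusted p = 0.0776), and neither passed. In KO libraries Itgax was at 0.267 to 0.525 CPM, against 0.127 to 0.870 CPM in KO cohort WT libraries.

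On the macrophage and monocyte list, Apoe carried nearly all of the RNA. Apoe, a lipid carrier gene on chromosome 7 (19696109 to 19699188, minus strand), was at 294, 443 and 307 CPM in KO libraries, against 297, 356 and 331 CPM in KO cohort WT libraries. In the knock-in cohort it was at 405, 427, 385 and 336 CPM in RH HET libraries and at 294, 350 and 234 CPM in RH HOMO libraries, against 466, 397 and 421 CPM in RH cohort WT libraries. RH HOMO libraries lay below their wild type, and the other groups overlapped theirs. The RH HOMO change was -0.55 ± 0.16 on the log2 scale (adjusted p = 0.0968) and did not pass, although its -135 CPM was the largest difference in amount of any tested member in that comparison. The KO change was 0.08 ± 0.16 (adjusted p = 0.904) and turned to -0.12 without KO 2.

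Cd68, a lysosomal glycoprotein gene, was at 8.07 to 13.1 CPM over all libraries, with log2 fold changes between -0.08 and 0.12 in the 4 comparisons of 2 groups. Csf1r, the receptor gene for the growth factor on which macrophages depend, was at 8.08, 9.07 and 4.62 CPM in RH HOMO libraries, against 5.53, 5.54 and 4.73 CPM in RH cohort WT libraries, and ran from 3.19 to 6.46 CPM in the other groups. Exons of Csf1r are overlapped over 15.1% of their bases by Hmgxb3 on the other strand, so part of its count cannot be assigned. Adgre1, which encodes the macrophage surface protein F4/80, was looked at after its values were seen and separated both knock-in groups from wild type. It was at 2.78, 2.78, 3.75 and 1.98 CPM in RH HET libraries and at 2.90, 2.77 and 2.56 CPM in RH HOMO libraries, against 0.734, 1.42 and 1.56 CPM in RH cohort WT libraries. The changes were 1.18 ± 0.29 in RH HET (adjusted p = 0.336) and 1.14 ± 0.31 in RH HOMO (adjusted p = 0.0768), and neither passed, the wild type libraries being shared. In KO it was at 0.977, 0.687 and 0.611 CPM, against 0.828, 1.18 and 1.36 CPM in KO cohort WT libraries, with overlap.

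The complement genes C1qa, C1qb and C1qc, which encode the 3 chains of C1q and lie side by side on chromosome 4 of GRCm38 (136880129 to 136898803), varied from library to library. C1qa was at 1.15, 0.410, 0 and 1.11 CPM in RH HET libraries and at 2.05, 1.26 and 0.333 CPM in RH HOMO libraries, against 0.262, 0.255 and 0.441 CPM in RH cohort WT libraries. In the knockout cohort C1qa was at 0.0724, 0.0886 and 0.191 CPM in KO libraries, against 0, 0.0423 and 0.199 CPM in KO cohort WT libraries. The groups overlapped within each cohort, and RH HET 1, RH HET 4, RH HOMO 1 and RH HOMO 2 were above 1 CPM. C1qb was at 1.47, 0.381, 0.183 and 0.724 CPM in RH HET libraries and at 1.06, 0.664 and 0.291 CPM in RH HOMO libraries, against 0.472, 0.401 and 0.401 CPM in RH cohort WT libraries. As for the knockout cohort, it was at 0.181, 0.399 and 0.0382 CPM in KO libraries, against 0.0414, 0.0423 and 0.166 CPM in KO cohort WT libraries. Its highest library was RH HET 1, and its groups overlapped within each cohort as well. C1qc was at 1.11, 0.381, 0.229 and 0.918 CPM in RH HET libraries and at 1.06, 0.601 and 0.0832 CPM in RH HOMO libraries, against 0.314, 0.437 and 0.321 CPM in RH cohort WT libraries. In the knockout cohort it was at 0.0362, 0.0886 and 0.420 CPM in KO libraries, against 0.0414, 0 and 0.265 CPM in KO cohort WT libraries. None of the 3 genes passed edgeR's test within a cohort, and none had an unadjusted p under 0.05 there. The largest change was that of C1qa in RH HOMO, 1.92 ± 0.998 on the log2 scale (adjusted p = 0.449).

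Lyz2, the lysozyme gene of macrophages and neutrophils, was at 2.09, 0.528, 0.366 and 3.81 CPM in RH HET libraries and at 3.43, 2.37 and 0.499 CPM in RH HOMO libraries, against 0.524, 0.838 and 2.37 CPM in RH cohort WT libraries. Among knockout cohort libraries it was at 0.507, 0.177 and 0.153 CPM in KO libraries, against 0.0414, 0.0211 and 1.13 CPM in KO cohort WT libraries. Within groups Lyz2 spread over several-fold, and each group overlapped its wild type. Lyz2 shares 15.4% of its exon stretches of 50 bases with other genes, most with Lyz1. The scavenger and Fc receptor genes were close to the limit of detection: Marco reached 0.190 CPM, Cd14, a co-receptor for lipopolysaccharide, 0.212 CPM, and Fcgr1, the high-affinity IgG receptor gene, 0.177 CPM at most. Fcgr3, a low-affinity IgG receptor gene, reached 0.491 CPM, Mertk, a receptor for engulfing dying cells, 0.645 CPM, Mrc1, the mannose receptor gene, 0.813 CPM, and Itgam, an integrin gene, 1.20 CPM. Over 68.7% of its exon bases Itgam is overlapped by Gm49368 on the same strand. Fcgr3 shares 9.58% of its exon stretches of 50 bases with other genes, most with Fcgr2b. It exceeded 0.105 CPM only in RH HET and RH HOMO libraries, and it passed the filter on low counts through them. Summed, the 10 macrophage members that averaged at or below 1 CPM came to 1.76 to 5.92 CPM in RH HET libraries and 2.19 to 7.39 CPM in RH HOMO libraries, against 2.24 to 2.88 CPM in RH cohort WT libraries. In the knockout cohort they came to 1.37 to 2.005 CPM in KO libraries, against 0.835 to 1.82 CPM in KO cohort WT libraries.

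**Figure D3:**
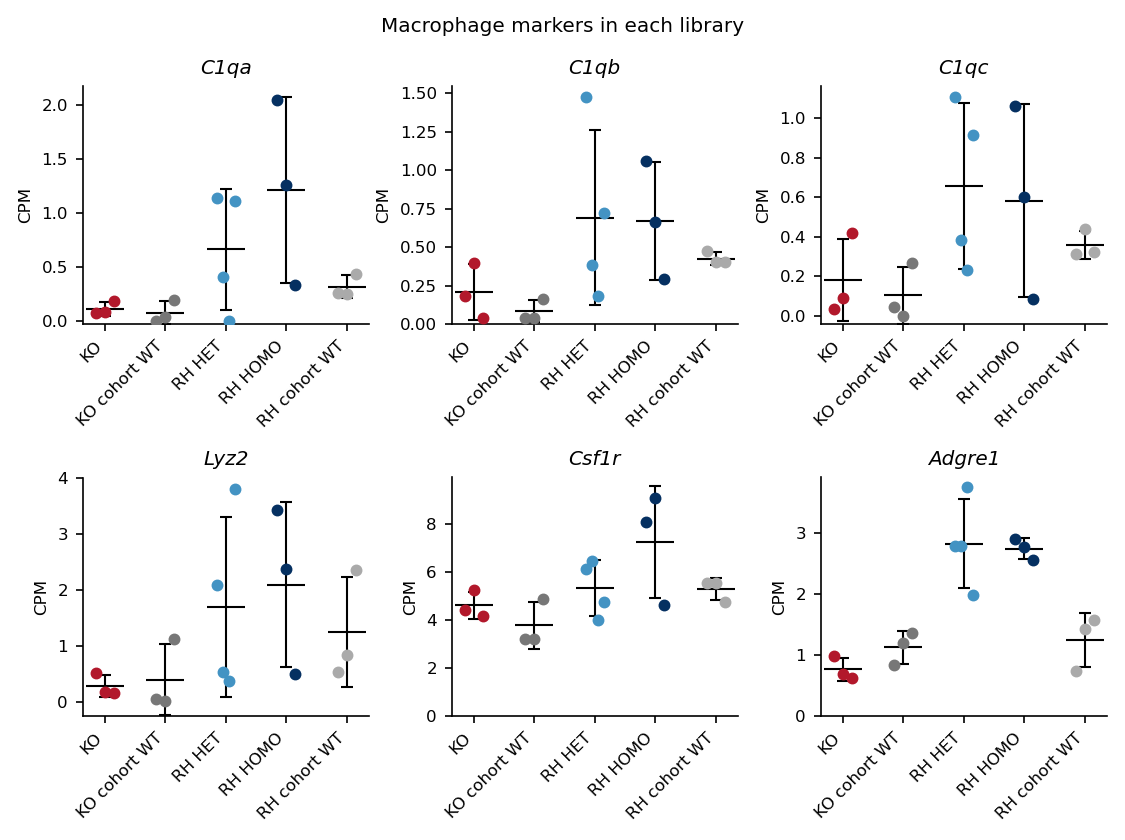
CPM per library (points) with group mean and SD (bars) for C1qa, C1qb, C1qc, Lyz2, Csf1r and Adgre1 in the 5 groups, on linear axes. C1qa, C1qb, C1qc and Lyz2 scatter within RH HET and RH HOMO, while Adgre1 lies at 1.98 to 3.75 CPM in the knock-in groups and at 0.734 to 1.56 CPM in RH cohort WT.

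Whether these macrophage genes varied together over libraries was tested for 9 pairs with C1qa, and 2 pairs of dendritic cell genes were tested beside them. Of 34 pairs listed, these were the ones in which both genes passed the filter on low counts. No tested pair joined markers of different cell types. Over the 16 libraries, on log2 of CPM plus 0.1, 5 of the 11 pairs were called by a two-sided permutation test of Pearson's r (100000 resamples, Benjamini-Hochberg adjustment over the 11). C1qa correlated with C1qb at r = 0.83 (permutation p = 1.4e-04, adjusted 4.4e-04) and rho = 0.83 (permutation p = 1.7e-04, adjusted 8.4e-04). With C1qc it gave r = 0.84 (permutation p = 5.0e-05, adjusted 2.7e-04) and rho = 0.81 (permutation p = 2.3e-04, adjusted 8.4e-04). With Lyz2 it gave r = 0.86 (permutation p = 5.0e-05, adjusted 2.7e-04) and rho = 0.86 (permutation p = 4.0e-05, adjusted 4.4e-04). These 3 genes, chains of C1q and lysozyme, tended to be high and low in the same libraries as C1qa. Csf1r gave r = 0.80 (permutation p = 1.6e-04, adjusted 4.4e-04) and rho = 0.80 (permutation p = 3.8e-04, adjusted 0.00104), and Fcgr3 gave r = 0.77 (permutation p = 4.4e-04, adjusted 9.7e-04) and rho = 0.72 (permutation p = 0.00227, adjusted 0.00499). Fcgr3 could be paired only because it passed the filter on low counts through RH HET and RH HOMO libraries. These 16 points fall into 2 cohorts with different levels. Within the 10 libraries of the knock-in cohort r was 0.88 with C1qb, 0.75 with C1qc, 0.85 with Lyz2, 0.71 with Csf1r and 0.67 with Fcgr3. Within the 6 libraries of the knockout cohort r was 0.85 with C1qc, 0.67 with Lyz2 and 0.69 with Csf1r, but 0.24 with C1qb and 0.25 with Fcgr3. With group means removed the 5 values were 0.62 to 0.82, and without RH HOMO 1 and RH HOMO 2, the farthest from the median of C1qa, they were 0.68 to 0.82. The pair of C1qa with Adgre1 was not called (r = 0.50, permutation p = 0.0492, adjusted 0.0902, rho = 0.51, permutation p = 0.0467, adjusted 0.0734), and with group means removed its r was -0.20. Nor was the pair with Mertk (r = 0.39, permutation p = 0.142, adjusted 0.223, rho = 0.53, permutation p = 0.0356, adjusted 0.0653). The abundant genes Cd68 (r = 0.02, permutation p = 0.948, adjusted 0.966, rho = 0.02, permutation p = 0.933) and Apoe (r = -0.01, permutation p = 0.966, adjusted 0.966, rho = 0.08, permutation p = 0.778) gave values near 0. Flt3 was not called with Itgax (r = 0.28, permutation p = 0.302, adjusted 0.416, rho = 0.26, permutation p = 0.339) or with Zbtb46 (r = 0.25, permutation p = 0.357, adjusted 0.436, rho = 0.12, permutation p = 0.650).

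NK cell markers were scarce. Ncr1, which encodes the activating receptor NKp46, had 4 counts in all, 2 in RH HET 4 and 2 in RH cohort WT 2. Klrb1c, which encodes the NK receptor NK1.1 of some mouse strains (chromosome 6, 128778485 to 128789215, minus strand), was at 1.003, 0.352, 0.366 and 0.773 CPM in RH HET libraries and at 0.601, 0.411 and 0.562 CPM in RH HOMO libraries, against 0.0524, 0.109 and 0.160 CPM in RH cohort WT libraries. As for the knockout cohort, it was at 0.181, 0.0443 and 0 CPM in KO libraries, against 0.249, 0.211 and 0.0994 CPM in KO cohort WT libraries. All 7 knock-in libraries carrying the allele lay above the other 9 libraries. Klrb1c passed the filter on low counts through RH HET and RH HOMO libraries, so it entered the tests because it was high there. The fold changes were 2.48 ± 0.77 in RH HET (adjusted p = 0.464) and 2.24 ± 0.80 in RH HOMO (adjusted p = 0.202), for differences of 0.516 and 0.417 CPM, and neither passed. Exons of Klrb1c are overlapped over 13.9% of their bases by Gm44511, which lies on the same strand.

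Erythroid genes were represented by Car2, which encodes carbonic anhydrase 2, an enzyme of red blood cells and several other cell types (chromosome 3, 14886273 to 14900770, plus strand). Car2 was at 6.12, 6.51 and 6.57 CPM in KO libraries, against 2.98, 2.43 and 4.17 CPM in KO cohort WT libraries. Among knock-in cohort libraries it was at 4.91, 4.05, 3.94 and 3.45 CPM in RH HET libraries and at 4.67, 7.62 and 4.51 CPM in RH HOMO libraries, against 3.17, 3.02 and 2.77 CPM in RH cohort WT libraries. In each comparison with wild type the mutant libraries lay above without overlap. Car2 rose in KO by 1.004 ± 0.225 on the log2 scale (adjusted p = 0.0345), with means of 6.40 ± 0.25 CPM in KO and 3.20 ± 0.89 CPM in KO cohort WT (SD, n = 3 each). The change in RH HOMO was 0.91 ± 0.23 (adjusted p = 0.0522) and in RH HET 0.45 ± 0.21 (adjusted p = 0.694), and neither passed. The RH HOMO and KO effects differed by -0.10 ± 0.32 (adjusted p = 0.959). The KO call was lost without any 1 of the 3 KO libraries and without the first or the second KO cohort WT library, with fold changes of 0.85 to 1.04 and adjusted p-values of 0.0985 to 0.171.

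The other erythroid members were scarce. Car1, which encodes carbonic anhydrase 1 and lies on the same chromosome, had 2 counts, both in RH HOMO 3. Hbb-bs, an adult beta globin gene, was at 0.0724, 0.0221 and 0.611 CPM in KO libraries, against 0.104, 0.0423 and 0.364 CPM in KO cohort WT libraries. In the knock-in cohort Hbb-bs was at 0.184, 0.410, 0 and 0.386 CPM in RH HET libraries and at 0.212, 0.459 and 0.166 CPM in RH HOMO libraries, against 0.341, 0.0546 and 0.0802 CPM in RH cohort WT libraries. Each mutant group overlapped its wild type. Hba-a1, an adult alpha globin gene, was at 0, 0 and 0.153 CPM in KO libraries, against 0, 0.0211 and 0 CPM in KO cohort WT libraries. As for the knock-in cohort, it was at 0, 0, 0.0458 and 0.0966 CPM in RH HET libraries and at 0, 0.443 and 0 CPM in RH HOMO libraries, against 0, 0.0728 and 0.160 CPM in RH cohort WT libraries. It was at 0 in 9 of the 16 libraries, and RH HOMO 2 held 28 of the 56 counts. The near-copy Hbb-bt, whose coding stretch is shown above, was at 2.39 to 7.38 CPM and averaged 3.31 ± 0.80 CPM in KO and 4.91 ± 0.76 CPM in KO cohort WT (SD, n = 3 each). Hba-a2 did not exceed 0.193 CPM. The additional erythroid list, with 4 tested genes, did not share the direction of Car2. Of the 4, 1 had a positive log2 fold change in KO (median -0.084), 0 in RH HET (median -0.224) and 1 in RH HOMO (median -0.852).

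In KO against KO cohort WT, 1 of the 26 tested members rose, Car2, where 0.572% of all 16606 tested genes did, and 1 fell, Flt3, where 0.729% did. Both genes had been named by earlier results of these data, so these counts are not an independent result. The groups did not overlap for 1 member that was higher (12.7% of all genes) and 5 that were lower (12.7% of all genes), namely Flt3, Zbtb46, Cd5, Cd2 and Lck. The median log2 fold change was -0.25 over the 26 and 0.00 over all genes. By list it was 0.19 for 12 macrophage members, -0.58 for 5 dendritic cell members and -0.44 for 6 T cell members. In amount, the differences of group means were -27.8 CPM for Cd2, -26.7 CPM for Lck, 19.6 CPM for Apoe, -15.2 CPM for Flt3 and 3.20 CPM for Car2, and those of Cd2, Lck and Apoe did not pass edgeR's test. At an unadjusted p under 0.05 there were 6 members, where 12.1% of all genes were. DESeq2 gave 19 of the 26 members an adjusted p and called Car2 higher (1.93% of its genes) and Cd2, Cd5 and Flt3 lower (2.04%). Limma-voom called Car2 and Thy1 higher (2.87%) and Cd2, Cd5, Flt3 and Lck lower (2.81%). Beside these differences, the 11 germinal centre B cell genes summed to 7226 to 7689 CPM in KO libraries, against 8192 to 8667 CPM in KO cohort WT libraries, without overlap. Within that sum, Mki67 averaged 3443 CPM in KO and 4116 CPM in KO cohort WT. Of the 11, 7 had negative log2 fold changes, and 1 fell, Rgs13, a regulator of G protein signalling (-1.58 ± 0.23, adjusted p = 0.00223). The part of this shift in the members' results was not tested.

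For RH HET against RH cohort WT, edgeR called 0 of the 26 members in either direction, where 0.012% of all genes were higher and 0.00602% lower, and 3 members had an unadjusted p under 0.05, where 7.18% of all genes did. DESeq2 called 1 member higher, Adgre1 (adjusted p = 0.0360), where it called 0.102% of its genes higher, and limma-voom called 0, where it called 0.765% higher and 0.705% lower. Members higher without overlap numbered 6 (2.97% of all genes), namely Adgre1, Mrc1, Itgax, Thy1, Klrb1c and Car2, and 0 were lower without overlap (3.52%). Klrb1c was among those tested only through its level in the knock-in libraries. So was Fcgr3, whose log2 fold change of 1.108 is part of the median that follows. The median was 0.40 over the 26 and -0.01 over all genes. By list it was 0.57 for 12 macrophage members, 0.30 for 5 dendritic cell members and 0.07 for 6 T cell members. The germinal centre sum was 6534 to 7178 CPM in RH HET libraries, against 6914 to 7239 CPM in RH cohort WT libraries, with overlap.

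RH HOMO, set against the same 3 wild type libraries, had 1 member that rose, Thy1, where 0.578% of all genes were higher, and 0 that fell, where 0.994% were lower. Thy1 too had been named by earlier results of these data, so this count is not an independent result. DESeq2 gave 24 of the 26 an adjusted p and called 4 members higher (Adgre1, Car2, Itgax and Thy1), where it called 1.61% of its genes higher, and 1 lower (Apoe), where it called 2.56% lower. Limma-voom called Adgre1, Itgax and Thy1 higher (3.22% of all genes) and Apoe lower (3.52%). At an unadjusted p under 0.05 there were 8 members, where 12.9% of all genes were. Without overlap 6 were higher (7.39% of all genes), namely Adgre1, Itgam, Itgax, Thy1, Klrb1c and Car2, and 2 were lower (8.03%), Apoe and Clec9a. Here too Klrb1c was tested only through its level in the knock-in libraries, as was Fcgr3, whose log2 fold change of 1.26 is part of the median that follows. The median was 0.62 over the 26 and 0.02 over all genes. The lists differed, with medians of 0.68 for 12 macrophage members, -0.06 for 5 dendritic cell members and -0.11 for 6 T cell members. The largest differences in amount in RH HOMO were -135 CPM for Apoe and 34.4 CPM for Cd2, while Thy1, the called gene, differed by 1.02 CPM. Beside these values, the 11 germinal centre B cell genes summed to 5057 to 6210 CPM in RH HOMO libraries, against 6914 to 7239 CPM in RH cohort WT libraries, without overlap. Within that sum, Mki67 averaged 2480 CPM in RH HOMO and 3153 CPM in RH cohort WT. Of the 11, 10 had negative log2 fold changes (median -0.23), and 1 fell, Mef2b, a transcription factor gene (-0.57 ± 0.11, adjusted p = 0.0143). Mitochondrial genes held 4.32% to 5.28% of counts in RH HOMO libraries, against 4.72% to 7.34% in RH cohort WT libraries, with overlap. The part of the germinal centre or mitochondrial values in the members' results was not tested.

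**Figure D4:**
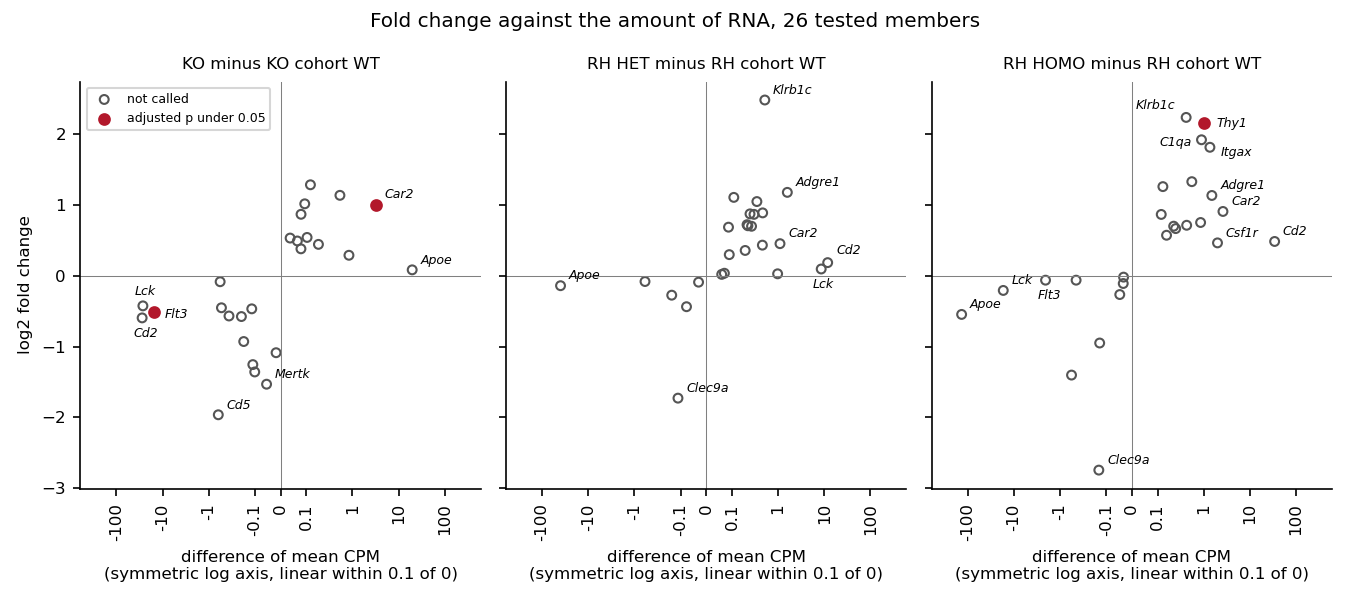
Log2 fold change (y axis) against the difference of group mean CPM (x axis, symmetric log) for the 26 tested members in the 3 comparisons with wild type, red where the adjusted p was under 0.05. Flt3 and Car2 are red in KO and Thy1 in RH HOMO, and the members with the largest folds, such as Klrb1c and Clec9a, lie within 1 CPM of 0 on the x axis.

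The effects of RH HOMO and KO, each against its own wild type, differed for 0 of the 26 members in either direction by edgeR's quasi-likelihood test, where 0.0783% of all genes had a higher and 0.163% a lower effect in RH HOMO. At an unadjusted p under 0.05 there were 6 members, where 9.53% of all genes were. DESeq2 gave 16 of the 26 an adjusted p and called a higher effect in RH HOMO for 2, Cd2 and Adgre1, where it called 0.795% of its genes higher and 0.978% lower, and 0 members lower. Limma-voom called 3, these and Klrb1c, where it called 1.9% of all genes higher and 1.99% lower, and 0 members lower.

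Between the wild type groups of the 2 cohorts, the tested macrophage markers had positive differences, but edgeR called none of them. Of the 26 members, edgeR called 0 in either direction, where 3.17% of all genes were higher and 1.88% lower, and 3 had an unadjusted p under 0.05, where 25.5% of all genes did. DESeq2 gave 19 of the 26 an adjusted p and called 1 higher, C1qb (adjusted p = 0.0405), where it called 8.43% of its genes higher, and limma-voom called 0, where it called 13.4% higher and 12.8% lower. The groups did not overlap for 6 members, all higher in RH cohort WT (17.4% of all genes), namely Fcgr3, C1qa, C1qb, C1qc, Apoe and Cd4, and for 0 that were lower (16.8%). All 12 tested macrophage members had positive log2 differences, with a median of 0.95, against 0.01 over all genes. Some of them, such as C1qa and Fcgr3, passed the filter on low counts through knock-in cohort libraries. In knockout cohort libraries C1qa stayed at or below 0.199 CPM and Fcgr3 at or below 0.0663 CPM. The count of 12 was thus partly set by the filter and is not an independent result. Of 13 tested genes on the additional macrophage list, 9 had positive and 4 negative differences (median 0.48), and edgeR called 0 of them, 3 having an unadjusted p under 0.05. Mitochondrial genes held 7.34%, 7.15% and 4.72% of counts in RH cohort WT libraries, against 3.90% to 4.46% in KO cohort WT libraries, without overlap. The germinal centre sum was 6914 to 7239 CPM in RH cohort WT libraries, against 8192 to 8667 CPM in KO cohort WT libraries, also without overlap. Within that sum, Mki67 averaged 3153 CPM in RH cohort WT and 4116 CPM in KO cohort WT. The part of either shift in the macrophage values was not tested. The differences were 1.96 ± 1.11 for C1qa (adjusted p = 0.286), 2.34 ± 0.87 for C1qb (adjusted p = 0.107), 1.84 ± 1.11 for C1qc (adjusted p = 0.317) and 0.38 ± 0.16 for Apoe (adjusted p = 0.138). Cohort and mouse line cannot be told apart in this comparison. Leaving out each library in turn gave log2 differences of 1.47 to 3.51 for C1qa, 1.97 to 3.27 for C1qb and 1.18 to 4.33 for C1qc.

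Further genes of the same cell types were read from lists beside the members. Of 19 additional macrophage genes 15 averaged at or below 1 CPM. Of the 13 tested, 6 had positive log2 fold changes in KO (median -0.045), 7 in RH HET (median 0.14) and 9 in RH HOMO (median 0.42). Mpeg1, which encodes a pore-forming protein of phagocytes and is also transcribed in B cells, had the highest mean of these and fell in KO by 0.82 (SE 0.15, adjusted p = 0.0121), with 18.9 ± 2.45 CPM in KO and 33.4 ± 4.64 CPM in KO cohort WT (SD, n = 3 each). Hmox1, a haem-degrading enzyme gene, averaged 4.08 CPM over all libraries. Of 10 additional dendritic cell genes 6 averaged at or below 1 CPM. Wdfy4, a gene of antigen cross-presentation, averaged 526 CPM and Sirpa, a phagocytosis checkpoint receptor gene, 12.9 CPM. Which cells the Wdfy4 RNA came from was not tested. Of the 4 additional dendritic cell genes tested, 1 had a positive log2 fold change in KO (median -0.305), 3 in RH HET (median 0.025) and 1 in RH HOMO (median -0.154). In KO the fatty acid receptor gene Ffar2 fell by 1.28 (SE 0.28, adjusted p = 0.0283), with 0.997 ± 0.12 CPM in KO and 2.41 ± 0.69 CPM in KO cohort WT (SD, n = 3 each). Of 15 additional T cell genes 12 averaged at or below 1 CPM, while Cd247, the zeta chain gene, averaged 16.3 CPM and Ctla4, an inhibitory receptor gene, 1.504 CPM. The T cell receptor constant genes Trac, Trbc1 and Trbc2 had 142, 8 and 54 counts in all 16 libraries. Among the 8 additional T cell genes tested, positive changes numbered 4 in KO (median 0.04), 2 in RH HET (median -0.22) and 3 in RH HOMO (median -0.172). Of 10 additional NK genes 9 averaged at or below 1 CPM, among them Prf1, the perforin gene, at 0.512 CPM, and Tbx21, a transcription factor gene that B cells can also use, averaged 15.5 CPM. Tbx21 was higher in RH cohort WT, at 21.96 ± 8.55 CPM, than in KO cohort WT, at 8.82 ± 0.92 CPM (SD, n = 3 each, log2 difference 1.32 ± 0.27, adjusted p = 0.0185). Only 2 additional NK genes were tested, with positive changes for 1 in KO, 0 in RH HET and 0 in RH HOMO. Of 9 additional erythroid genes that were measured, 8 averaged at or below 1 CPM, Ermap, a blood group gene in humans, at 0.538 CPM. All 10 neutrophil genes together summed to 0 to 0.848 CPM. The sum of 6 platelet and megakaryocyte genes averaged 94.5 CPM, of which Itgb3 held 93.6 CPM. That of 9 stroma and follicular dendritic cell genes averaged 62.9 CPM, Pecam1 holding 57.3 CPM. The 7 plasma cell genes averaged 670 CPM in sum, with Jchain at 464 CPM. Which cells this RNA came from was not tested.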

How the data were processed

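Total RNA of sorted mouse cells was sequenced, and the authors deposited 1 table of whole-number counts per gene symbol in the 16 libraries, without normalisation. Per the submitters' processing notes, CASAVA 1.8, HISAT2 and featureCounts were used with the mm10 genome. Their settings, the annotation and the read layout are not stated in the labels. Because TruSeq v2 libraries carry no strand mark, a gene and one that overlaps it cannot be told apart. Groups were taken from sample titles, since several tags hold values of other fields.

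Positions, exon lengths and the sequences come from GENCODE M21 (GRCm38). Genes were kept with filterByExpr, which left 16606, and scaled with TMM. One edgeR 4.0.16 quasi-likelihood fit (R 4.3.3) of 5 group means had 11 residual degrees of freedom, and p-values were adjusted by Benjamini-Hochberg over all tested genes and called under 0.05. Each SE was computed from the fitted change and its F statistic, as log2 change over root F. CPM used TMM-scaled library sizes, and a group mean is given with the SD over its libraries. Alternatives were DESeq2 1.42.0, limma 3.58.1 (voom with quality weights), DESeq2 size factors in edgeR, other filters and thresholds, 697 immunoglobulin and T cell receptor genes left out, other sets of libraries and each library left out. Halving the counts was chosen after seeing the data. Pairs were tested with numpy 2.4.6 and scipy 1.17.1 under Python 3.11.15, and figures drawn with matplotlib 3.10.9. The fit was tested on simulated data.

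Values per library are given for members that were called, for the highest mean and the widest range in each list, and for C1qa, C1qb, C1qc, Cd3e, Siglech, Ncr1 and Hba-a1. The members and the gene lists were chosen with earlier results of these data known. Those results had named Flt3, Car2 and Thy1, the members that edgeR called. RH HET and RH HOMO share their wild type libraries. Limits for a count of 0 cover counting error only and take each count as a separate fragment.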

Additional observations from a re-analysis of the deposited data

Results flagged for a closer look

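Single libraries stood far from the rest of their group in 2 of the 26 groups of 4 libraries examined, 1 for each tested member in RH HET. Chance gives about 1 in 20 for normally distributed values, a rate that does not hold for counts near 0. Mertk, a receptor for engulfing dying cells, was at 0.645 CPM in RH HET 2, above the other RH HET libraries. Clec9a, a receptor gene of cross-presenting dendritic cells, was at 0.206 CPM in RH HET 3, against 0 in the other 3 RH HET libraries. With those at 0, any count in a single library would have been flagged.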

How the results depend on the processing

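No paired analysis was possible because the labels give no replicate numbers, and the numbers used here only name libraries. Markers near 0 were limited by depth, since 3 counts were 0.0317 to 0.0786 CPM, a limit that is higher if fragments were counted more than once. Counts of called members moved as follows, and the cause was not tested. At an adjusted p under 0.1, RH HOMO had 4 higher and 1 lower, and the RH HOMO effect exceeded the KO effect for 1. With no filter on low counts, KO had 2 lower, RH HOMO 3 higher and 1 lower, and the effects differed for 1. Without immunoglobulin and T cell receptor genes, KO had 0 lower and RH HOMO 2 higher. By DESeq2, KO had 3 lower, RH HET 1 higher, RH HOMO 4 higher and 1 lower, RH cohort WT against KO cohort WT 1 higher, and the effects differed for 2. By limma-voom, KO had 2 higher and 4 lower, RH HOMO 3 higher and 1 lower, and the effects differed for 3. With only the compared libraries in the fit, KO had 3 lower, RH HOMO 0 higher and RH cohort WT against KO cohort WT 1 higher. Moving the library with conflicting labels left 0 lower in KO and 0 higher in RH HOMO. Without RH cohort WT 1 and RH HOMO 2, KO had 2 lower and RH HOMO 0 higher. With all 6 wild type libraries as controls, KO had 3 lower and RH HOMO 5 higher.

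Leaving out each library in turn gave 0 to 1 members higher and 0 to 2 lower in KO, 0 to 3 higher and 0 to 1 lower in RH HOMO, and 0 to 1 for the difference of effects. RH HET and the wild type comparison had 0 throughout, and 5 to 6 pairs were called. The log2 fold change of Apoe in KO, 0.08, turned to -0.051 with the conflicting library moved, -0.121 with all 6 wild type libraries and -0.118 without KO 2, over a range up to 0.197. That of C1qa in RH HET was -0.385 by limma-voom, against 1.049 by edgeR. Over all alternatives the adjusted p-value ran from 0.00128 to 0.240 for Flt3 in KO, from 0.000902 to 0.171 for Car2 in KO and from 0.00142 to 0.180 for Thy1 in RH HOMO, each in the same direction.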
